A study of Gallus gallus with 12 samples.

Results

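The step from sexual maturity to peak laying was examined in the liver of the hen. It was read from 6 of the 12 livers of the series, the 3 taken at sexual maturity (SM, day 133 of age) and the 3 taken at peak laying (PL, day 220). All birds were females of Luhua, an indigenous Chinese breed, with 1 liver from each hen and no treatment. By their labels the groups differ by age and stage of laying, and their libraries also differed, as given below. The juvenile livers (JP, day 60) and the livers of the broodiness stage (BP, day 400), 3 of each, are set beside them where a transcript's level in those stages bears on its description. RNA depleted of ribosomal RNA had been sequenced in strand-specific libraries, and the level of each transcript was given as FPKM (sequenced fragments of a transcript divided by its length and by the total of the library) in a table of 18260 mRNAs and another of 16930 long non-coding RNAs (lncRNAs). The livers are written SM1 to SM3 and PL1 to PL3, by stage and replicate number.

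The avian liver, rather than adipose tissue, makes most of the body's new fatty acids. Once the ovary secretes estrogen, hepatocytes also turn out the precursors of egg yolk, the vitellogenins and the apolipoproteins of yolk-targeted very low density lipoprotein, which travel in the blood to the growing follicles. A lncRNA is a long transcript without a coding frame, and most of those in liver have no known role. The question of the comparison was which transcripts differ between a hen at the threshold of laying and a hen in full lay. Transcripts were named by Ensembl transcript identifiers (ENSGALT) or by the identifiers of the study's assembly (TCONS), and 0 of the mRNAs could be paired with a gene symbol. The yolk precursors and the markers of hepatocytes or of other cells could therefore not be looked up by name, the tissue label was not checked against markers, and the roles of the transcripts below are not given. In whole liver, fewer cells of a type and less RNA per cell cannot be told apart.

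The libraries of SM and PL differed as wholes. Summed over the mRNA table, FPKM came to 688208 to 727595 at SM and 408296 to 478988 at PL, and over the lncRNA table to 7070 to 7568 at SM and 3106 to 3985 at PL. At SM 1009 to 1104 mRNAs were listed at 0, and at PL 1732 to 2123. These ranges did not overlap between the stages (exact permutation test, two-sided, p = 0.1 for each of the 3 quantities, the smallest p that 3 livers against 3 can give). The same division runs through all 12 livers, with mRNA sums of 688208 to 772041 in the SM and BP livers and of 408296 to 539529 in the JP and PL livers. By the paper's summary of reads, every SM and BP library also had a lower share of mapped reads than any JP or PL library. Its share of clean reads was higher in every SM and BP library. A difference between stages and a difference between sets of libraries cannot be told apart in a comparison of SM with PL. Low FPKM values repeat the steps of single fragments, and from these steps the total by which each library had been divided was inferred. Relative to SM1 it was 0.841 in SM2 and SM3, 1.05 in PL1, 1.21 in PL2 and 0.889 in PL3. Each estimate is the most frequent ratio between low lncRNA values, held by 29 to 72 of 2040 to 2782 lncRNAs. These relative totals overlapped between the stages. Set against the clean reads that the paper lists, the inferred total was higher in every PL liver than in any SM liver. PL1 had fewer clean reads than SM1, and PL3 fewer than SM2 and SM3, although their inferred totals were higher. PL2 had nearly as many clean reads as SM1. A higher total lowers every FPKM value of its library, and the reason for this offset was not tested.

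Transcripts were compared on log2(FPKM + 1) with limma, and a transcript was called when its adjusted p (Benjamini-Hochberg over all transcripts tested in its table) was under 0.05 and its fold at least 1.5. On this scale the change of a transcript with low FPKM is understated. The test covered the 15806 mRNAs that exceeded 0.1 FPKM in 3 or more of the 6 livers. Of these, 510 rose (3.23%) and 3967 fell (25.1%) from SM to PL, so that 28.3% were called and 88.6% of the calls were falls. The median mRNA itself lay lower at PL by a log2 difference of -0.32. Median-ratio scaling sets the libraries level by the ratio that their middle transcript bears to its average over the 6 livers. The factors were computed apart for mRNAs and for lncRNAs. After scaling the median difference was -0.02, 1604 mRNAs rose (10.1%) and 1717 fell (10.9%), so that 21.0% were called and 51.7% of the calls were falls. The excess of falls depended on how the libraries were put on a common scale, and a transcript called below in the deposited values was called in the same direction after scaling unless its own sentences say otherwise. The 2 scalings shared 493 risen mRNAs, which are 96.7% of those risen in the deposited values and 30.7% of those risen after scaling. They shared 1717 fallen mRNAs, which are 43.3% and 100% of the 2 lists, and 0 mRNAs were called in opposite directions. With 1 liver fewer, the falls numbered 2518 without SM2, 2491 without SM3 and 2572 without PL2, and the rises 292 without SM1, 292 without SM2, 299 without SM3 and 319 without PL2.

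**Figure D1:**
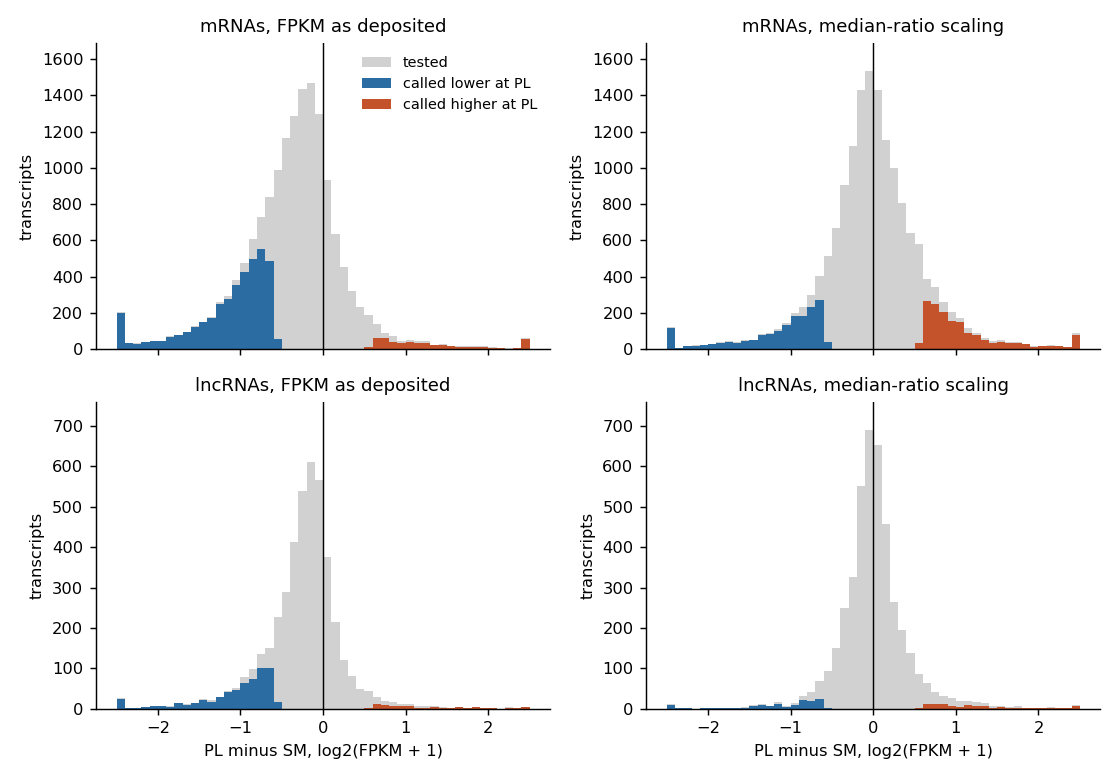
Number of transcripts (y axis) in bins of the difference PL minus SM on log2(FPKM + 1) (x axis, bins of 0.1), for mRNAs (top) and lncRNAs (bottom), with FPKM as deposited (left) and after median-ratio scaling (right). Grey bars count all transcripts tested, blue those called lower and orange those called higher at PL, and the first and last bins also hold every difference beyond the range drawn. The grey distribution of mRNAs is centred at -0.32 in the deposited values and at -0.02 after scaling.

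On log2(FPKM + 1), changes of at least 256-fold were called for 8 mRNAs higher and 1 mRNA lower at PL under both scalings. This excess of rises rested on the value of 1 added before the logarithm, which bounds a fall that ends near 0, and with 0.1 added 8 mRNAs rose and 9 fell by at least 256-fold. At lower limits the falls outnumbered the rises in the deposited values, with 18 rises and 36 falls of at least 16-fold, 77 and 349 of at least 4-fold and 303 and 1957 of at least 2-fold. After median-ratio scaling these counts were 20 and 28, 139 and 186, and 687 and 812. Calls also depended on the level of the mRNA, and the 1 added before the logarithm bounds the differences of low mRNAs. Among the 4401 mRNAs with a mean below 1 FPKM over the 6 livers 0.818% rose and 9.27% fell in the deposited values, whereas among the 448 between 100 and 1000 FPKM 9.15% rose and 38.4% fell. After scaling, the class of 100 to 1000 FPKM held 23.7% risen and 22.1% fallen, and the class of 10 to 100 FPKM was the one in which rises exceeded falls by the widest margin, with 19.7% and 13.6% of 3880 mRNAs.

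**Figure D2:**
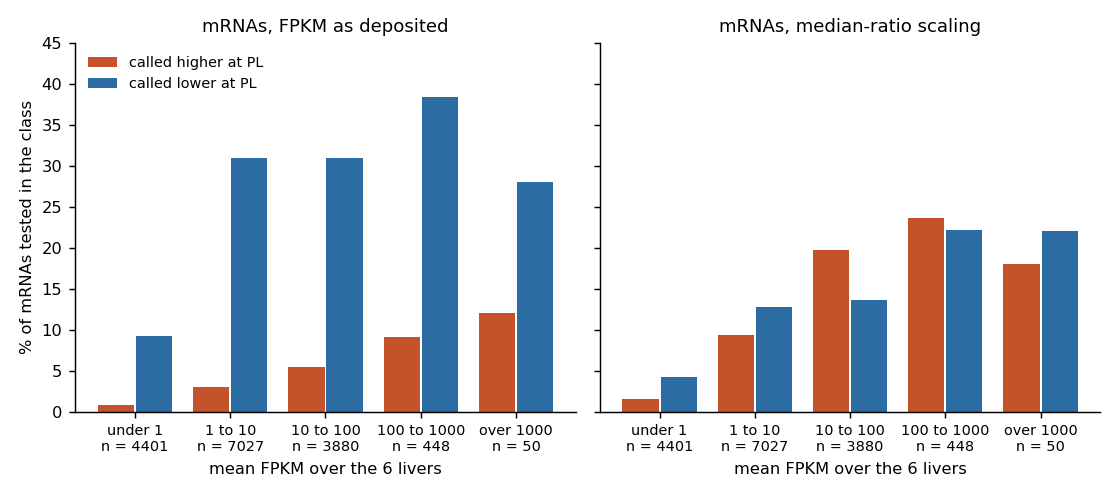
Share of the mRNAs tested that were called higher (orange) or lower (blue) at PL (y axis, percent) in 5 classes of mean FPKM over the 6 livers (x axis, with the number of mRNAs in each class), with FPKM as deposited (left) and after median-ratio scaling (right). In the deposited values the falls exceed the rises in every class, and after scaling the rises exceed them between 10 and 1000 FPKM.

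The 8 mRNAs with the largest rises on log2(FPKM + 1) and the 8 with the largest falls were taken from those called under both scalings whose SM and PL livers did not overlap. Livers without overlap were found, higher at PL, in 6.68% of all mRNAs tested in the deposited values and in 22.4% after scaling, and, lower at PL, in 42.7% and 24.1%. These shares describe the pool, and the separation of the 16 mRNAs was fixed by their choice. Together the 8 risen mRNAs held 26.8% of the mRNA FPKM sum in PL1, 23.1% in PL2 and 5.35% in PL3, against at most 0.0852% in an SM liver. ENSGALT00000068539 showed the largest difference on this scale, although with 0.1 added that of ENSGALT00000063504 was larger (13.70 against 13.67). It had 0.407, 0.349 and 0.501 FPKM in SM1 to SM3 and 12846, 11005 and 2146 in PL1 to PL3, a log2 difference of 12.21 ± 0.60 (SE, limma, adjusted p = 1.66e-05). It was below 1 FPKM in every JP liver and stood at 0.524, 564 and 12.2 FPKM in BP1 to BP3, so that the high level was found in the laying birds and, unevenly, in the stage after. ENSGALT00000060226 followed, with 3.97, 4.70 and 3.48 FPKM at SM against 27300, 25146 and 7674 at PL (log2 difference 11.76 ± 0.46, adjusted p = 6.58e-06). ENSGALT00000051020 had 0.895, 1.002 and 0.360 FPKM at SM and 9088, 8212 and 2525 at PL (11.70 ± 0.46, adjusted p = 6.58e-06). This mRNA moved with ENSGALT00000060226 at a ratio of 0.327 to 0.333 in the 3 PL livers and 0.287 to 0.299 in the 3 BP livers. Whether the pair shares reads was not tested.

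The fourth of these mRNAs had another course. ENSGALT00000063504 was at 0.0952, 0.111 and 0.116 FPKM in the SM livers and at 3089, 3341 and 2035 in the PL livers (log2 difference 11.28 ± 0.22, adjusted p = 2.05e-07). It was also high in the JP livers, at 2196, 1965 and 1854 FPKM, and at 0.102 to 0.111 in the BP livers. Its high and low levels follow the division of all 12 libraries described above. ENSGALT00000024419 was the most abundant of the 8 and the most variable at SM. It had 12.4, 585 and 14.7 FPKM in SM1 to SM3, of which SM2 stood apart, and 52440, 48929 and 10201 FPKM in PL1 to PL3 (9.22 ± 1.39, adjusted p = 0.00267). Of its BP livers, at 529, 12322 and 7422 FPKM, the lowest was below SM2 and the highest above PL3.

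The other 3 of the 8 were less abundant. ENSGALT00000071196 had 0.194 to 0.367 FPKM at SM and 2076, 1490 and 626 at PL (log2 difference 9.92 ± 0.39, adjusted p = 6.58e-06). ENSGALT00000078635 had 0.201 to 0.382 FPKM at SM and 409, 520 and 192 at PL (8.10 ± 0.34, adjusted p = 8.11e-06). ENSGALT00000038387 had 2.71 to 3.31 FPKM at SM and 2302, 1987 and 246 at PL (8.05 ± 0.74, adjusted p = 0.000359). In 8 of the 8, PL3 was the lowest PL liver. In 6 of the 8 every BP liver exceeded every SM liver, and in 6 every BP liver was below every PL liver. The shares of all mRNAs tested with these orders are not given, so the counts describe the 8 alone. Over the 12 livers the log2 levels of ENSGALT00000060226 and those of ENSGALT00000051020, ENSGALT00000078635 and ENSGALT00000038387 had Pearson's r of 0.998, 0.993 and 0.991. These were the 3 mRNAs most like it in pattern, and the points share their libraries.

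**Figure D3:**
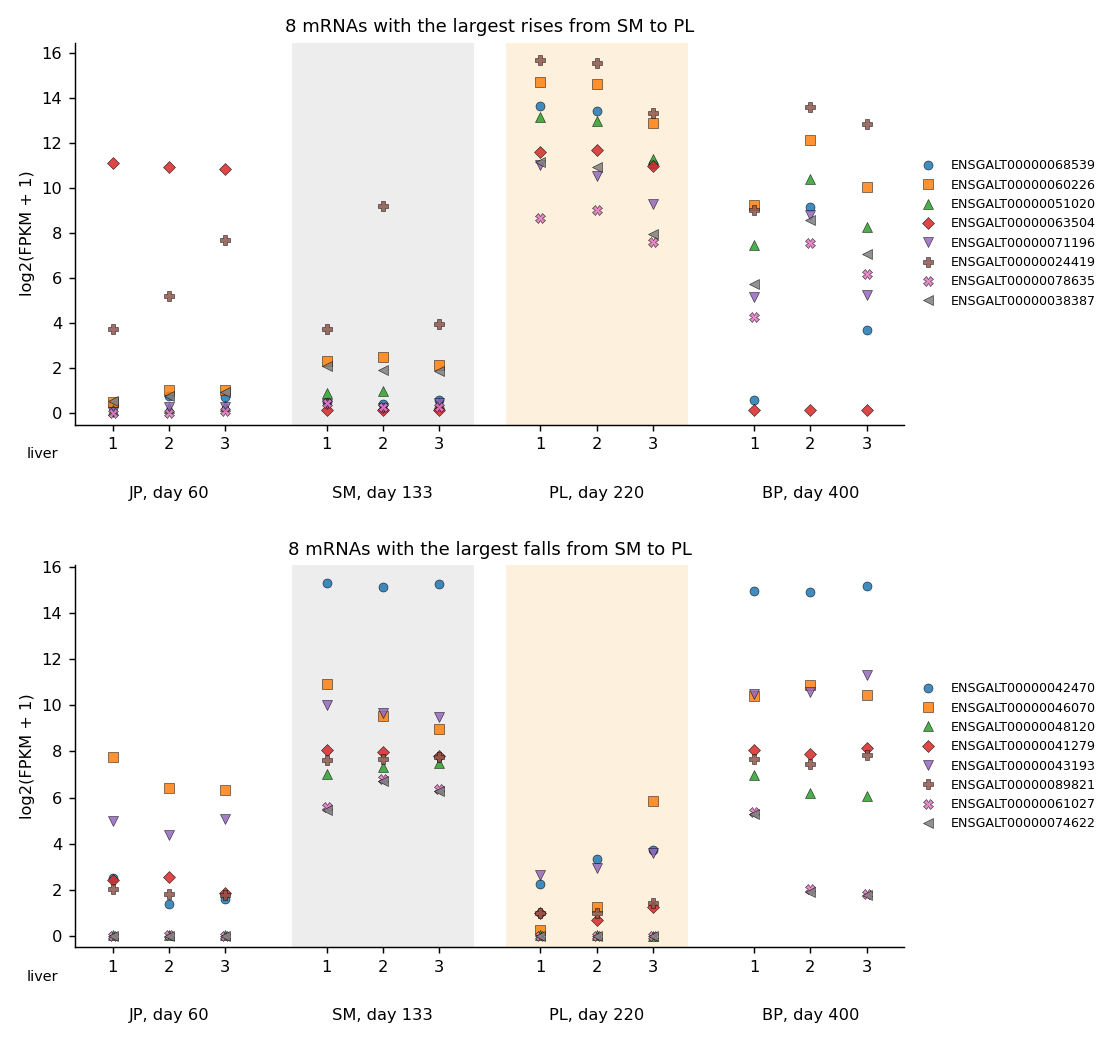
Level of the 8 mRNAs with the largest rises (top) and the 8 with the largest falls (bottom) from SM to PL, as log2(FPKM + 1) (y axis), in each of the 3 livers of the 4 stages (x axis, each mark 1 mRNA in 1 liver). The mRNAs were chosen so that SM livers (grey band) and PL livers (orange band) do not overlap. PL3 is the lowest PL liver for all 8 rises, and the BP livers lie above the PL livers for all 8 falls.

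The largest fall was that of ENSGALT00000042470, which had 40539, 35692 and 39677 FPKM in the SM livers and 3.68, 8.95 and 12.2 in the PL livers (log2 difference -12.15 ± 0.39, adjusted p = 2.30e-06). It had 30891 to 36977 FPKM in the BP livers and 1.62 to 4.65 in the JP livers. It was thus among the 5 most abundant mRNAs at SM. At PL its mean log2(FPKM + 1) was 3.09, still above the median mRNA of the PL livers (1.27 to 1.71). ENSGALT00000046070 fell from 1952, 734 and 503 FPKM to 0.187, 1.34 and 55.8 (-7.37 ± 1.28, adjusted p = 0.00466), and here PL3 stood far above the other PL livers. ENSGALT00000048120 fell from 128, 160 and 181 FPKM to 0.00959, 0.0172 and 0.00328 (-7.27 ± 0.18, adjusted p = 8.22e-07). It was 66.5 to 126 FPKM in the BP livers and 0.0243 to 0.0357 in the JP livers.

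The next 3 falls ended near 1 to 10 FPKM. ENSGALT00000041279 had 219 to 268 FPKM at SM and 0.610 to 1.39 at PL (log2 difference -6.97 ± 0.19, adjusted p = 1.11e-06). ENSGALT00000043193 had 711 to 1032 FPKM at SM and 5.24 to 10.9 at PL (-6.67 ± 0.27, adjusted p = 7.81e-06). ENSGALT00000089821 had 195 to 218 FPKM at SM and 0.983 to 1.68 at PL (-6.55 ± 0.18, adjusted p = 1.11e-06). In these 3 mRNAs PL3 was the highest PL liver. The last 2 of the 8 falls, ENSGALT00000061027 and ENSGALT00000074622, were listed at 0 in all 3 PL livers and had 46.7, 110 and 82.8 FPKM and 43.4, 103 and 77.5 FPKM in SM1 to SM3. Their ratio in the SM livers was 0.928 to 0.935, and that of ENSGALT00000081816, also listed at 0 at PL, to ENSGALT00000061027 was 0.889 to 0.910. Whether the 3 share reads was not tested.

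All 8 falls shared a course over the 4 stages. In 8 of 8 every BP liver exceeded every PL liver, and in 8 of 8 every JP liver was below every SM liver. In the deposited values, 15.5% of all mRNAs tested had every SM and BP liver above every JP and PL liver. Of the mRNAs called lower, 46.3% had this order. The high and low levels of the 8 mRNAs follow the division of all 12 libraries described above. The 8 are themselves part of the mRNA sums, with 5.46% to 6.08% of the sum in each SM liver. Stage and set of libraries cannot be told apart for them. All 16 mRNAs of the 2 lists kept their call in each of the other fits made, those without each of the 6 livers included.

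A wider look at the JP and BP livers gave 2 courses that were frequent among the called mRNAs. Of the 3967 fallen mRNAs, 1836 (46.3%) were higher in every SM and BP liver than in any JP or PL liver, a course that 15.5% of all mRNAs tested followed. A PL level below that of all 9 other livers was found for 1346 (33.9%), against 11.1% of those tested, and an SM level above that of all 9 others for 843 (21.3%), against 7.91%. After median-ratio scaling of the 12 livers these courses held 794 (46.2%), 624 (36.3%) and 239 (13.9%) of 1717 fallen mRNAs, against 8.33%, 6.64% and 2.74% of those tested. Of the 510 risen mRNAs, 224 (43.9%) were higher in the 3 PL livers than in all 9 others, against 2.18% of those tested, and 104 (20.4%) were lower in every SM and BP liver than in any JP or PL liver, against 1.31%. After scaling, 639 of 1604 risen mRNAs (39.8%) were highest at PL and 644 (40.1%) were lower in every SM and BP liver than in any JP or PL liver, against 6.81% and 7.21% of those tested. The calls themselves fix the order of SM and PL in these counts, and the shares of the tested mRNAs are given for reading them only.

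The most abundant mRNAs changed places between the stages. The 5 with the highest mean at SM held 39.3% to 42.6% of the mRNA FPKM sum in the SM livers, and the same 5 held 12.2%, 13.0% and 23.5% in PL1 to PL3. ENSGALT00000043486 led at SM with 91617, 71820 and 66802 FPKM and had 1202, 1290 and 1655 at PL (log2 difference -5.79 ± 0.63, adjusted p = 0.000753). ENSGALT00000045308 had 60796, 46452 and 41332 FPKM at SM and 723, 821 and 1468 at PL (-5.68 ± 0.58, adjusted p = 0.000563). Both were high at BP, at 102216 to 126861 FPKM and at 70024 to 84803 FPKM. Both were low at JP, at 643 to 781 FPKM and at 578 to 635 FPKM. Their ratio stayed between 0.602 and 0.899 in all 12 livers. These levels follow the division of all 12 libraries described above, and stage and set of libraries cannot be told apart for them. The 5 mRNAs leading at SM are themselves part of the mRNA sums by which that division was described. Without these 5 the sums came to 400834 to 418084 at SM and to 358507 to 379219 at PL. The other 2 of the 5, beside ENSGALT00000042470, were among the highest at PL as well. ENSGALT00000028633 had 63324, 75475 and 63858 FPKM at SM and 11911, 18997 and 28366 at PL, without overlap, yet it did not pass the test (-1.86 ± 1.06, adjusted p = 0.202). Its JP livers had 30040 to 35577 FPKM and its BP livers 65551 to 68416, so its levels follow that division too. ENSGALT00000028633 did pass in the fit without a variance trend (adjusted p = 0.00542) and with a minimum of 1 FPKM (0.0310). The SDs of its log2 levels were 0.143 at SM and 0.626 at PL, and the SE printed is that of limma with the trend, not the spread of these livers alone. ENSGALT00000069352 had 53564, 67248 and 58456 FPKM at SM and 35949, 35764 and 80909 at PL, where PL3 exceeded every SM liver, and its difference of -0.34 ± 1.24 did not pass either (adjusted p = 0.850, and 0.23 ± 1.13 after scaling).

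At PL the 5 leading mRNAs held 34.1%, 31.7% and 27.7% of the sum in PL1 to PL3. They were ENSGALT00000069352, ENSGALT00000024419, ENSGALT00000060226 and ENSGALT00000028633, all described above, and ENSGALT00000026601. The last had 1541, 1845 and 1526 FPKM at SM and 11635, 9245 and 5369 at PL (log2 difference 2.35 ± 0.48, adjusted p = 0.00904). It kept its call in all other fits except that without SM3 (adjusted p = 0.0544). Its JP and BP livers had 2247 to 2738 and 2162 to 4453 FPKM, all above the SM livers and below the PL livers.

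The 3 PL livers were not alike. Spearman's rho over the 15806 mRNAs tested was 0.973 between PL1 and PL2, 0.947 between PL1 and PL3 and 0.954 between PL2 and PL3, whereas it was 0.976 to 0.978 among the SM livers. Each SM liver had its highest rho of the 3 PL livers with PL3 (0.916 to 0.921, against 0.888 to 0.905). PL3 was therefore placed on transcripts called without it, although the FPKM filter and the median-ratio scaling still used all 6 livers. Transcripts were called without a liver, and its own value was expressed on a scale where the mean of the other stage is 0 and the mean of the other 2 livers of its own stage is 1. PL3 had a median position of 0.60 on 646 mRNAs called higher and 0.57 on 5690 called lower without it. The other 5 livers, left out in the same way, had medians of 0.86 to 1.24. Their lists were called with PL3 in the fit, and for PL1 and PL2 the mean set to 1 includes PL3. Their positions are therefore not free of PL3. After median-ratio scaling PL3 stood at 0.58 on 2205 higher and 0.81 on 2018 lower mRNAs, with the other 5 livers at 0.91 to 1.11.

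PL3 still kept to the side of its stage for most transcripts. Of the mRNAs called without it, it lay beyond all 3 SM livers in 79.9% of those higher and 81.4% of those lower at PL, against at least 89.5% for each of the other livers in each direction. Without PL3 more mRNAs were called, 6336 (40.1%) in the deposited values, with 4.09% of those tested higher and 36.0% lower at PL. After scaling 4223 were called (26.7%), with 14.0% higher and 12.8% lower. On lncRNAs the distance lay mainly in the rises. The median position of PL3 was 0.34 on 120 lncRNAs higher and 0.78 on 639 lower at PL, and 0.36 on 212 and 0.93 on 152 after scaling. These called lncRNAs were 2.73% and 14.5% of those tested in the deposited values, 17.3% in all, and 4.82% and 3.46% after scaling, 8.28% in all. Why PL3 differs was not tested.

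**Figure D4:**
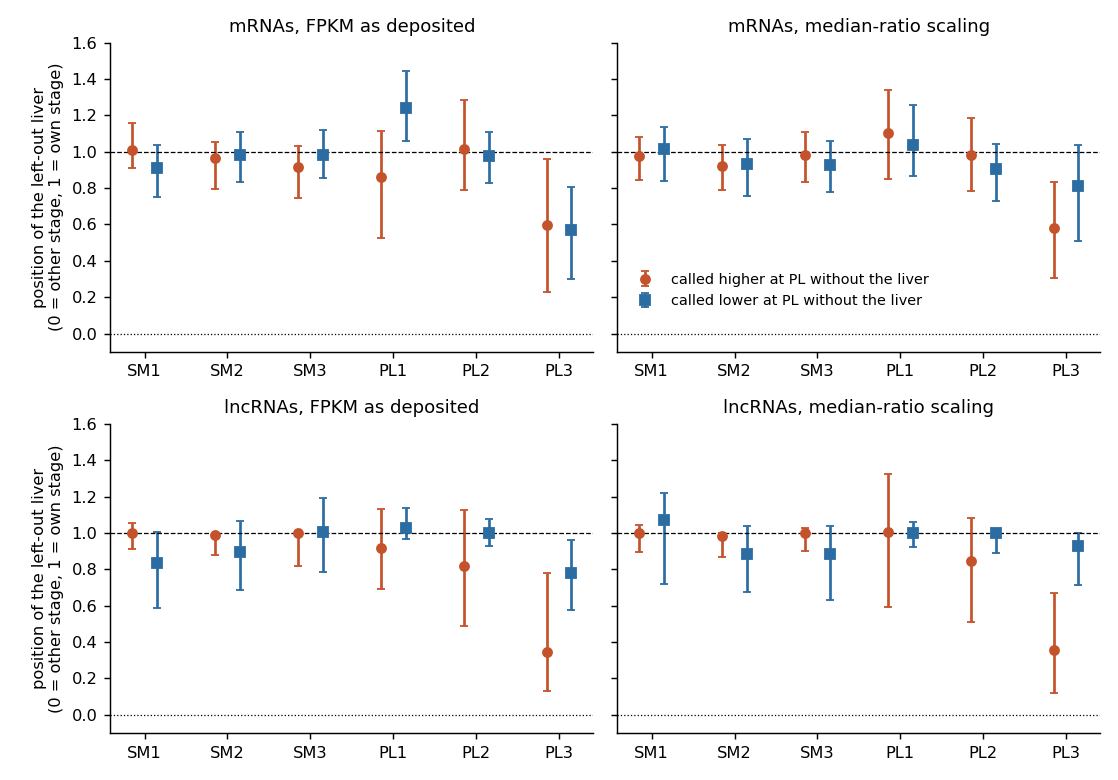
Position of each liver (x axis) on transcripts called without it (y axis), where 0 is the mean of the other stage and 1 the mean of the other 2 livers of its own stage. Marks are medians and bars quartiles over the transcripts called higher (orange) or lower (blue) at PL, for mRNAs (top) and lncRNAs (bottom), with FPKM as deposited (left) and after median-ratio scaling (right). PL3 has the lowest median in the rises in all 4 panels, and in the falls of mRNAs it lies at 0.57 and 0.81.

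Among the mRNAs called without PL3 under both scalings, those in which PL3 stood farthest from PL1 and PL2 included both directions. ENSGALT00000068633 had 3360 and 3725 FPKM in PL1 and PL2 and 0.124 in PL3, the level of the SM livers (0.0961 to 0.115). It had 2122 to 2508 FPKM in the JP livers and 0.103 to 0.117 in the BP livers. PL3 apart, its levels follow the division of all 12 libraries described above. With PL3 its difference was 7.77 ± 2.71 on the log2 scale and did not pass the test (adjusted p = 0.0581), whereas in the fit of all 12 livers it passed (adjusted p = 0.0154). Without PL3 the difference was 11.64, and its call there was fixed by its choice. ENSGALT00000063504, described above, stood to it in a ratio of 0.897 to 0.919 in PL1 and PL2 and at 0.869 to 0.876 in the JP livers, while in PL3 only ENSGALT00000063504 was high. Whether this pair shares reads was not tested. ENSGALT00000035473 went the other way, with 337 to 521 FPKM at SM, 3.40 and 5.25 in PL1 and PL2 and 207 in PL3. It had 2.61 to 67.3 FPKM in the JP livers and 440 to 2319 in the BP livers, so that its levels follow that division too. It was called in the deposited values (-4.51 ± 1.26, adjusted p = 0.0275) and was not after scaling (-4.00, adjusted p = 0.0511), nor with sum scaling (0.0592), nor without SM1 (adjusted p = 0.0772), SM2 (0.0761), SM3 (0.0653), PL1 (0.0929) or PL2 (0.0905). A level at least 4-fold below both other livers of its stage was found in PL3 for 48 mRNAs and at least 4-fold above both for 51, against at most 14 and 10 in each of the other 5 livers.

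Some transcripts went from a measured level to 0 or the reverse, and whole libraries held more values of 0 at PL. Of the 16930 lncRNAs, 7687 to 8247 were listed at 0 in the SM livers and 9745 to 10278 in the PL livers. For the 18260 mRNAs these numbers were 1009 to 1104 and 1732 to 2123. The counts that follow were made over all these transcripts and are to be read beside those numbers. Listed at 0 in every SM liver and above 1 FPKM in every PL liver were 5 mRNAs and 3 lncRNAs. Listed at 0 in every PL liver and above 1 FPKM in every SM liver were 24 mRNAs and 20 lncRNAs. An exact 0 in FPKM can also be a failed estimate, so no fold is given for these, and their differences on log2(FPKM + 1), here and below, depend on the 1 added. ENSGALT00000083655 was the highest mRNA of the first kind, with 7.62, 7.60 and 8.53 FPKM at PL (log2 difference 3.15 ± 0.16, adjusted p = 1.98e-05), 0.277 to 0.647 at JP and 0 in each BP liver. ENSGALT00000035085 had 6.04, 6.97 and 6.39 FPKM at PL and at most 0.202 FPKM in any of the other 9 livers (2.90 ± 0.16, adjusted p = 2.56e-05). ENSGALT00000054392 had 1.75, 2.57 and 5.06 FPKM at PL (1.96 ± 0.27, adjusted p = 0.00180), with PL3 the highest.

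The lncRNAs were lower and fewer. The same filter left 4395, of which 79 rose (1.8%) and 606 fell (13.8%) from SM to PL, which makes 15.6% called. After median-ratio scaling 103 rose (2.34%) and 142 fell (3.23%), which makes 5.57%. The factors of the lncRNAs were 1.27 to 1.57 at SM and 0.620 to 0.927 at PL. Those of the mRNAs were 1.15 to 1.26 and 0.683 to 1.04. A shift that most lncRNAs share and mRNAs do not is therefore removed by this scaling as well. The median lncRNA differed by -0.20 on the log2 scale in the deposited values and by -0.02 after scaling. The 2 scalings shared 56 rises, 70.9% and 54.4% of the 2 lists, and 142 falls, 23.4% and 100% of them. At least 4-fold changes were 9 rises and 40 falls in the deposited values and 15 and 16 after scaling. Of the 606 falls, 334 (55.1%) were higher in every SM and BP liver than in any JP or PL liver, against 16.4% of the lncRNAs tested. Of the 79 rises, 32 (40.5%) were highest in the 3 PL livers among all 12, against 1.80%. After scaling these counts were 48 of 142 falls (33.8%, against 4.16%) and 49 of 103 rises (47.6%, against 4.73%). The falls numbered 270 without PL1 and 197 without PL2, and the rises 45 without SM1, 44 without SM2, 48 without PL1, 50 without PL2 and 120 without PL3.

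The 5 lncRNAs that the study chose for quantitative PCR included the 2 largest rises called under both scalings. Their primer pairs are shown because the PCR reads the lncRNA through them alone. The sequences run 5′ to 3′ and are written in lower case throughout, since no part of a primer is singled out.
TCONS_00220501 forward: tcgtgaatggcagcaagaagagac
TCONS_00220501 reverse: tcctgctccttcctgcactcc
TCONS_00179354 forward: ctgatggaagtcaggcagctctc
TCONS_00179354 reverse: acaaggcaggtatcatgctggaag
TCONS_00083873 forward: aggatcagctccgtctggtg
TCONS_00083873 reverse: tgtgccaagaccacccagta
TCONS_00155619 forward: catcaactccagccttcctctgc
TCONS_00155619 reverse: cagcctgcggatacttccaagtc
TCONS_00037924 forward: ttaacaagaagggaaatgtggactg
TCONS_00037924 reverse: caattccttttgtttcctcttctga
The primers were 20 to 25 bases long. The pair of TCONS_00037924 had 40% and 36% G and C, and the other 8 primers had 50% to 61.9%.

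TCONS_00220501 was listed at 0 in each SM liver and had 20.5, 26.1 and 29.8 FPKM in PL1 to PL3 (log2 difference 4.71 ± 0.23, limma, adjusted p = 0.000238). In the other stages it was listed at 17.9, 22.6 and 0 FPKM in JP1 to JP3 and at 52.4, 0 and 0 in BP1 to BP3. TCONS_00179354 had 0.0147, 0.181 and 0.0700 FPKM at SM and 11.1, 9.95 and 2.44 at PL (2.82 ± 0.45, adjusted p = 0.00778), and 1.21 to 1.56 at BP. TCONS_00155619 had 0.0339, 0.598 and 0.153 FPKM at SM and 3.61, 2.72 and 6.03 at PL (1.995 ± 0.28, adjusted p = 0.00570), with PL3 the highest of the 6 livers.

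The other 2 of the 5 gave no call that held in every fit. TCONS_00083873 had 0.395, 0.584 and 1.06 FPKM at SM and 7.96, 6.10 and 1.33 at PL, so that PL3 lay just above SM3. Its difference of 1.68 ± 0.48 was called in the deposited values (adjusted p = 0.0374) and was not after scaling (2.25 ± 0.60, adjusted p = 0.0580). It also lost its call with no filter (adjusted p = 0.181), without a variance trend (0.0546), and without SM1 (0.111), SM2 (0.103), SM3 (0.0683), PL1 (0.109) or PL2 (0.122). TCONS_00037924 had 6.92, 6.45 and 7.21 FPKM at SM and 1.05, 5.88 and 5.25 at PL, all below the SM livers, and did not pass the test (-0.82 ± 0.46, adjusted p = 0.212). In the deposited values 41.1% of the lncRNAs tested were lower at PL without overlap. After scaling the difference of TCONS_00037924 was -0.06 ± 0.45 (adjusted p = 0.950). Its highest level was at JP, with 25.3 to 76.5 FPKM.

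The other leading lncRNAs of the rise were TCONS_00168923, TCONS_00134611 and TCONS_00179352. TCONS_00168923 had 0.255, 0.870 and 0.163 FPKM at SM and 5.92, 5.77 and 12.4 at PL (log2 difference 2.61 ± 0.33, adjusted p = 0.00421). TCONS_00134611 was listed at 0 in all SM and BP livers and in 2 of the 3 JP livers and had 3.78, 3.19 and 4.38 FPKM at PL (2.25 ± 0.16, adjusted p = 0.000648). In both, PL3 was the highest PL liver. In TCONS_00179352, by contrast, PL3 was the lowest, with 8.61, 4.24 and 1.33 FPKM in PL1 to PL3 against 0.00244 to 0.113 at SM (2.22 ± 0.45, adjusted p = 0.0147), and its call was lost without PL2 (adjusted p = 0.0625) and with no filter (0.0758). Another 2 lncRNAs with neighbouring identifiers were listed at 0 in all SM livers. TCONS_00179351 had 22.5, 17.9 and 0.920 FPKM in PL1 to PL3, and TCONS_00179353 had 3.46, 2.12 and 1.12. TCONS_00179353 was called (1.63 ± 0.26, adjusted p = 0.00738). TCONS_00179351 was called in the deposited values (3.25 ± 0.85, adjusted p = 0.0293) and was not after scaling (adjusted p = 0.0640), nor with sum scaling (0.0564), with no filter (0.146), nor without SM1 (0.0798), SM2 (0.0820), SM3 (0.0736), PL1 (0.0923) or PL2 (0.101). Over the 12 livers the pattern nearest to that of TCONS_00179354 was that of TCONS_00179352 (Pearson's r = 0.981 on the log2 scale, libraries shared). Whether the neighbours TCONS_00179351 to TCONS_00179354 share reads was not tested, so they may not be separate observations.

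Of the 5 leading falls, 4 ended at 0 in at least 2 PL livers. The identifiers TCONS_00226696 and TCONS_00226697 are neighbours, and TCONS_00074300, TCONS_00074302 and TCONS_00074303 lie close together. Whether such neighbours share reads was not tested, so the 5 may not be separate observations. TCONS_00226696 fell from 271, 237 and 344 FPKM to 4.77, 0 and 0 (log2 difference -7.29 ± 0.66, adjusted p = 0.00134). TCONS_00226697 fell from 469, 319 and 323 FPKM to 4.86, 16.8 and 27.3 (-4.67 ± 0.54, adjusted p = 0.00341) and had 526 to 915 FPKM at BP. Both were measured at JP as well, at up to 80.2 and at 76.9 to 167 FPKM. TCONS_00074302 had 115, 53.6 and 55.8 FPKM at SM and 188 to 260 at BP, and was listed at 0 in every PL and JP liver (-6.15 ± 0.34, adjusted p = 0.000238). TCONS_00074303 and TCONS_00074300 were also listed at 0 in every PL and JP liver, with 39.8, 5.51 and 16.6 FPKM and with 35.0, 3.25 and 23.1 FPKM in SM1 to SM3 (-4.06 ± 0.59, adjusted p = 0.00570, and -3.95 ± 0.71, adjusted p = 0.0104). SM1 was the highest and SM2 the lowest SM liver in both, and TCONS_00074300 lost its call without PL2 (adjusted p = 0.05002), with no filter (0.0564) and with median-ratio scaling without PL3 (0.0548). The 10 leading lncRNAs were chosen without overlap of SM and PL livers, like the mRNAs. In the pool, 5.78% of the lncRNAs tested showed this towards PL and 41.1% towards SM, and 14.2% and 22.1% after scaling.

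**Figure D5:**
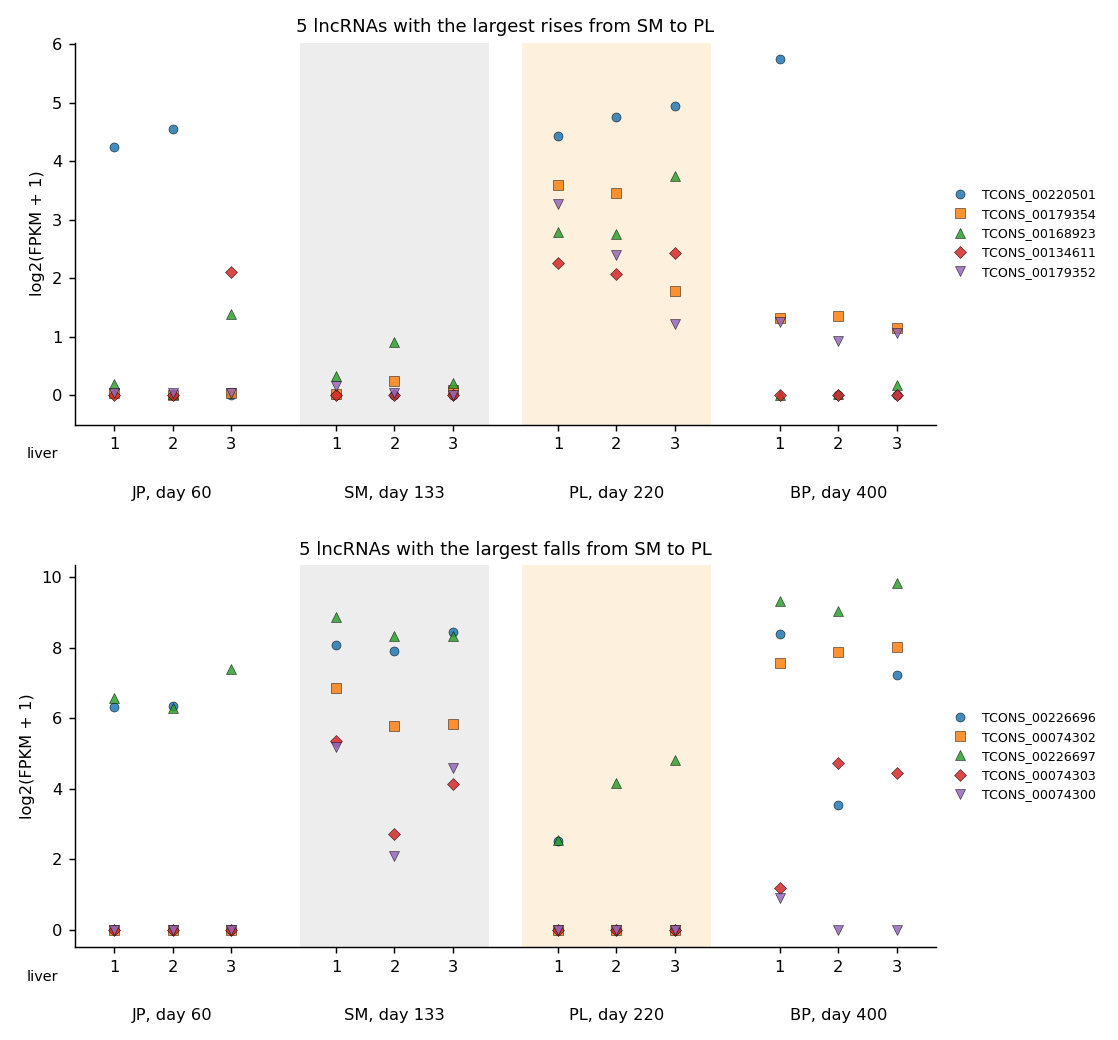
Level of the 5 lncRNAs with the largest rises (top) and the 5 with the largest falls (bottom) from SM to PL, as log2(FPKM + 1) (y axis), in each of the 3 livers of the 4 stages (x axis, each mark 1 lncRNA in 1 liver). The lncRNAs were chosen so that SM livers (grey band) and PL livers (orange band) do not overlap, and TCONS_00220501 is above 0 in 2 JP livers and 1 BP liver and listed at 0 in the others of those stages.

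The 3 lncRNAs highest at each stage included TCONS_00226697, described above. TCONS_00074843, the second at SM and the first at PL, had 430, 329 and 390 FPKM at SM and 275, 440 and 618 at PL. It did not pass the test in the deposited values (log2 difference 0.15 ± 0.28, adjusted p = 0.719) and was called higher at PL after scaling (1.11 ± 0.23, adjusted p = 0.0313), though not after scaling without PL3 (adjusted p = 0.0526). TCONS_00045205 had 63.7 to 87.2 FPKM at SM and 46.4 to 90.8 at PL, with the stages overlapping (-0.33 ± 0.30, adjusted p = 0.436, and 0.62 ± 0.39 after scaling, adjusted p = 0.334). TCONS_00125494 had 106 to 124 FPKM at SM and 49.8 to 69.0 at PL and was called lower in the deposited values (-0.97 ± 0.21, adjusted p = 0.0177), a call lost without PL1 (adjusted p = 0.0571) or PL2 (0.0699). After scaling its difference was -0.02 ± 0.20 (adjusted p = 0.973), so that the direction of this lncRNA rests on the scaling. TCONS_00074304, the highest at SM, had 421, 756 and 417 FPKM at SM and 64.5, 100 and 0.120 at PL. It missed the threshold in the deposited values (-4.71 ± 1.52, adjusted p = 0.0527) and after scaling (adjusted p = 0.195). It passed without PL3 (-2.65, adjusted p = 0.00910), in the fit of all 12 livers (0.0159) and with a minimum of 1 FPKM (0.0385).

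Lists of lncRNAs that the study had formed from these same livers, which are no independent evidence of direction, were counted last. Module 1 of its co-expression network had 6 rises and 70 falls among 161 members tested, module 2 had 35 rises and 1 fall among 75, and module 3 had 1 rise and 22 falls among 63, beside 1.8% rises and 13.8% falls over all lncRNAs tested. After scaling the counts were 6 and 45, 25 and 1, and 1 and 10, beside 2.34% rises and 3.23% falls over all lncRNAs tested. The same shares over all lncRNAs apply to the time-series profiles below. The median log2 differences of the 3 modules were -0.55, 0.72 and -0.54, against -0.20 over all lncRNAs tested, and -0.34, 0.97 and -0.37 against -0.02 after scaling. Of the profiles of its time-series analysis, profile 42 held 320 falls and 0 rises among 500 tested, and 70 falls and 0 rises after scaling. Profile 48 held 35 falls among 98, of which scaling left 2, and its median went from -0.59 to 0.02. Profile 28 held 61 falls among 113 and 33 after scaling. Profiles 29 and 39 held the rises, with 25 of 53 and 18 of 39 members and 0 falls, and with 15 and 19 rises after scaling. Profiles 38, 41 and 46 held 0, 1 and 0 rises and 1, 0 and 0 falls among 53, 45 and 41 tested, and 3, 8 and 3 rises and 0 falls after scaling.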

How the data were processed

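Liver RNA of 12 hens had been sequenced (rRNA-depleted, strand-specific, paired-end libraries). The authors mapped the reads with HISAT2 2.1.0, assembled transcripts with StringTie 1.3.3 and deposited FPKM values, 1 table of mRNAs and 1 of lncRNAs with a column for each liver. Replicates were not pooled, and 0 value columns were left out. The study's read counts, on which it ran edgeR, were not used here. FPKM carries no depth of its own, so no counting interval is given, and relative library totals came from 1-fragment steps below 0.2 FPKM, which closed within 0.025 on the log2 scale in 20 of 20 triples of livers.

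The 6 livers of SM and PL were fitted in limma 3.58.1 (R 4.3.3) with a mean for each stage and a variance trend, on log2(FPKM + 1), for transcripts above 0.1 FPKM in at least 3 livers. Library values were compared by exact permutation tests (scipy 1.17.1). The fit was checked on simulated data with 200 transcripts changed, all with a mean above 1 on the log2 scale. Of the 2-fold changes it called 37% for mRNAs and 43% for lncRNAs, and of the 4-fold changes 82% and 81%. False calls were 5 of 124 and 3 of 127. Lower transcripts were not tried, nor was a difference between whole libraries such as that of SM and PL. False calls from such a difference are therefore not covered. Alternatives were 0.1 added in place of 1, a minimum of 1 FPKM, no filter, median-ratio and sum scaling, no trend, all 12 livers in 1 fit, a block for the replicate number, and the omission of single livers. Median-ratio fits that omit a liver other than PL3 were chosen after seeing the data, for the positions of the left-out livers.

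Transcripts named are the 8 mRNAs and 5 lncRNAs with the largest rise and fall called under both scalings without overlap of livers, the 5 mRNAs and 3 lncRNAs highest at each stage, the 5 lncRNAs measured by PCR, those with PL3 farthest from PL1 and PL2 among transcripts called without PL3 under both scalings, and the 3 highest listed at 0 in a whole stage. The members and lists were chosen with earlier results of these data known. Patterns most alike were ranked by Pearson's r over 12 livers. Fold changes of the study, gene-level tables and lncRNA coordinates were not used here.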

Additional observations from a re-analysis of the deposited data

How the results depend on the processing

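The split into rises and falls depended on scaling. With median-ratio scaling 1604 mRNAs rose and 1717 fell, with sum scaling 2095 and 1312, and with median-ratio scaling without PL3 2205 and 2018. The median difference of all mRNAs tested was 0.0427 with sum scaling, and that of lncRNAs 0.0031, against -0.32 and -0.20. Of lncRNAs 245 were called with median-ratio scaling (142 falls), 256 with sum scaling (122 rises, 134 falls) and 364 with median-ratio scaling without PL3 (212 rises, 152 falls). With 0.1 added 1344 were called (167 rises, 1177 falls), with a minimum of 1 FPKM 448 (32 rises, of 762 tested) and with no filter 273 (32 rises, 241 falls). TCONS_00125494 differed by 0.0758 with sum scaling and by 0.0230 with median-ratio scaling without PL3. Leaving out each liver gave 2790 to 6336 called mRNAs (292 to 646 rises, 2491 to 5690 falls) and 247 to 759 called lncRNAs (44 to 120 rises, 197 to 639 falls). The replicate number as a block gave 490 rises and 3770 falls of mRNAs and 72 and 535 of lncRNAs. With this block ENSGALT00000068633 (adjusted p = 0.0405) and TCONS_00074304 (0.0419) passed the threshold, TCONS_00125494 (0.0533) and TCONS_00083873 (0.0562) did not, and no other named transcript changed its call. Deviations of SM and PL livers with the same number correlated at -0.08 to -0.01 for mRNAs and -0.05 to -0.02 for lncRNAs. With 3 livers a stage these values cannot decide whether the numbers pair the hens, and no label pairs them. The cause of these changes was not tested. Fits with a liver left out hold fewer samples, and whether this changed their counts was not tested either. Without PL3 the called mRNAs rose from 4477 to 6336 and the called lncRNAs from 685 to 759. Leaving out any other liver lowered both counts. FPKM gives no counting error, so the limit of detection of low lncRNAs is unknown.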
